A study of Mus musculus with 4 samples.

Results

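Of the 27179 genes in the table of cultured mouse ILC2s, 9 encode the kinases described here. They are the TAO kinases Taok1, Taok2, and Taok3, the MAP4K kinases Map4k1, Map4k3, Map4k4, and Map4k5, and the MST kinases Stk3 and Stk4, found by their symbols. The set was selected on family names after the DCA against vehicle values of Taok3 were known, so the differences of the members between treatments are given as descriptions, and no test of them is used as support. RNA-Seq was done on group 2 innate lymphoid cells (ILC2s), lymphocytes without antigen receptors, sorted from the large intestine of C57BL/6 mice. All cells had a culture of 5 days with IL-33, IL-25, IL-7, and IL-2 (10 ng/mL each). One group of 2 libraries was the control, titled Ctrl and called vehicle here. Another group of 2 libraries received deoxycholic acid (DCA), a secondary bile acid made by gut bacteria, at 100 μM. The RNA-Seq methods of the study name no vehicle. The treatment lasted 16 hours by the deposited design text and 24 hours by the methods of the study, which give mouse ages of 6 to 14 weeks in one section and 6 to 8 weeks in another. How many mice went into a library is not given in the sources used here, and p-values therefore measure only the spread between these libraries, which may be technical.

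Ste20 kinases are serine/threonine kinases named after the yeast protein Sterile 20. Many of them sit at the top of MAP kinase cascades. TAO kinases activate the kinases upstream of p38 and JNK, and they also act on the MST kinases, the first step of the Hippo pathway. MAP4K kinases feed into JNK, and MAP4K1, also called HPK1, restrains antigen receptor signals in lymphocytes. MST1, the product of Stk4, is known in lymphocytes for its part in adhesion and trafficking, and it acts with MST2, the product of Stk3, on the NDR and LATS kinases through the adaptor MOB1.

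The libraries held 26564059 to 244165712 counts, with DCA replicate 2 the deepest. Each of the 9 genes had at least 111 counts in every library, and all passed the filter of a mean of at least 1 CPM, the unit of read counts scaled to library size, here adjusted by the TMM method. Of 13 ILC2 markers, all had a mean of at least 1 CPM, with Thy1 at 4.24 CPM in DCA replicate 1 and at most 0.0547 CPM elsewhere. Cd4, Cd8a, Pax5, Csf1r, Cd14, and Krt20, which mark other immune cells and epithelium, had 0 counts in all libraries, which allows up to 0.115 CPM in the shallowest, by counting error only. The 6 markers of macrophages and monocytes summed to 24 to 24.7 CPM with vehicle and 7.30 to 10.2 CPM with DCA, nearly all of it Cd68, and the 8 markers of T cells, mainly Cd28 and Cd3g, to 82.0 to 117 and 98.6 to 172 CPM. Summed markers of B cells, nearly all Cd79b, were at 47.3 to 55.2 CPM with vehicle and 37.8 to 44.5 CPM with DCA, and those of epithelium, of mast cells and basophils, and of ILC3s at no more than 13.5 CPM in any library. The part of these cells in the results below was not tested. In bulk RNA, fewer cells that express a gene and less RNA per cell cannot be told apart.

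The stretch before the start of each TAO gene is shown because the 3 paralogs differed in direction between treatments. These are the 250 bases upstream of the RefSeq start on GRCm38.p6, read along the gene, for Taok1 at chr11:77607816-77608065 (minus strand), Taok2 at chr7:126884968-126885217 (minus strand), and Taok3 at chr5:117119879-117120128 (plus strand). Capitals mark GC boxes (GGGCGG) and CCAAT boxes (CCAAT) on either strand.
Taok1: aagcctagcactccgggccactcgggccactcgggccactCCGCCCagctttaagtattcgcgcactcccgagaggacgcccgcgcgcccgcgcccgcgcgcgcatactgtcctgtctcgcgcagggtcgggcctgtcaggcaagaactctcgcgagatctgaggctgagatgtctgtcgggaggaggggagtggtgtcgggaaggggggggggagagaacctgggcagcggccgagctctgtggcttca
Taok2: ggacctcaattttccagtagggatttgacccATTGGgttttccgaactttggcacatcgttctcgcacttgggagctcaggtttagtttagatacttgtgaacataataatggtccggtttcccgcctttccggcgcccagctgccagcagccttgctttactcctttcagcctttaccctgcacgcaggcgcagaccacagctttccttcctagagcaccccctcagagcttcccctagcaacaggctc
Taok3: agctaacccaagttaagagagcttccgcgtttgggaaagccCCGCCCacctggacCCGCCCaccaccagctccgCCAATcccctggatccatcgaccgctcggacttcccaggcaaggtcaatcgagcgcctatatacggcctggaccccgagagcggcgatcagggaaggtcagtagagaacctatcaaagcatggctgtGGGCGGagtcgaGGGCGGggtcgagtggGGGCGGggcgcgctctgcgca

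The Taok3 stretch held 5 GC boxes and 1 CCAAT box, the Taok1 stretch held 1 GC box, and the Taok2 stretch held 1 CCAAT box. Among the 32851 stretches of 250 bases in the table, 32.7% held a GC box and 33.8% a CCAAT box. The E-box CACGTG, held by 6.02% of all stretches, the cyclic AMP response core TGACGT, held by 6.47%, and the C/EBP-ATF element TGATGCAA, held by 0.791%, were searched on both strands and were in none of the 3. The share of G and C was 68.4% for Taok1, 53.2% for Taok2, and 64.4% for Taok3, against a median of 52.4%. The start of Taok2 in this table is in no GENCODE transcript of the gene. A match is a description of the letters and not of binding.

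In these libraries, TAO kinase RNA held more Taok3, the gene whose values were known beforehand, and less Taok1 and Taok2 with DCA. Taok3 (Entrez gene 330177) lies on chromosome 5 from 117120129 to 117275219 on GRCm38, plus strand. Taok3 RNA was at 58.5 and 70.5 CPM in vehicle replicates 1 and 2 and at 198 and 148 CPM in DCA replicates 1 and 2. The treatments did not overlap, and the lower DCA value was 2.10 times the higher vehicle value. The means were 64.5 ± 8.50 CPM with vehicle and 173 ± 34.96 CPM with DCA (SD, n = 2 each), a log2 fold change of 1.42 (standard error, SE, 0.25, computed on log2(CPM + 1) values). Of the 11179 genes tested, Taok3 ranked 727 by size of increase.

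Taok2 (Entrez gene 381921, chromosome 7, 126865678 to 126884703, minus strand) encodes a TAO kinase known for its role in neuronal growth and at the endoplasmic reticulum. It measured 29.5 and 23.4 CPM in vehicle and 9.72 and 11.7 CPM in DCA libraries. Both DCA libraries were lower than both vehicle libraries. Its mean went from 26.5 ± 4.33 to 10.7 ± 1.42 CPM (SD, n = 2 each), a log2 fold change of -1.30 (SE 0.20).

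Taok1 (Entrez gene 216965, chromosome 11, 77529162 to 77607815, minus strand), a microtubule and MAP kinase regulator, measured 30.8 and 32.8 CPM in vehicle and 17.6 and 21.1 CPM in DCA libraries. Again the treatments did not overlap. The log2 fold change of Taok1 was -0.72 (SE 0.13), from 31.8 ± 1.38 to 19.3 ± 2.45 CPM (SD, n = 2 each). Taok1 and Taok2 had the most alike profiles among the 9 genes, with a root mean square distance of 0.30 between their centred log2 values over the 4 libraries.

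**Figure D1:**
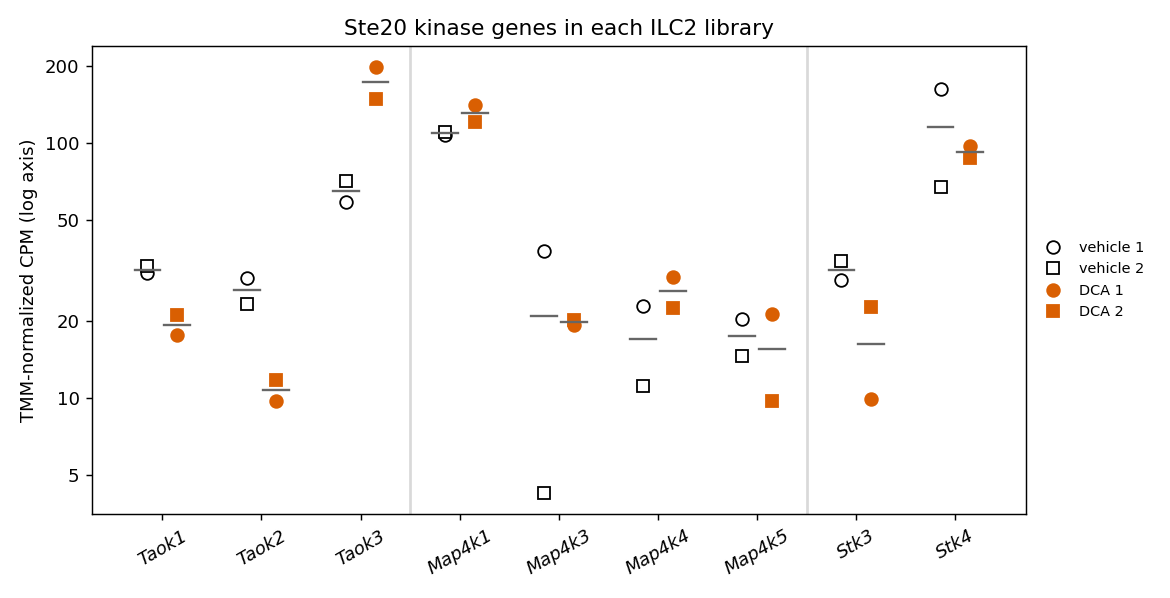
Normalized expression of the 9 kinase genes in TMM-normalized CPM on a log axis, with 1 symbol per library, open for vehicle and filled for DCA, and a line at each mean. Both DCA libraries sit above both vehicle libraries for Taok3 and Map4k1 and below both for Taok1, Taok2, and Stk3, and Map4k3 has a low value of 4.24 CPM in vehicle replicate 2.

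Because these counts come from the same library, the ratio of paralogs within a library does not depend on scaling. There were 1.899 and 2.15 counts of Taok3 for each count of Taok1 with vehicle, and 11.2 and 7.03 with DCA. For Taok3 against Taok2 the ratios were 1.98 and 3.01 with vehicle and 20.3 and 12.6 with DCA. The ratio of Taok1 to Taok2 moved less, from 1.04 and 1.40 to 1.81 and 1.80. The ratios with Taok3 restate the values above and carry no further support.

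To compare levels between genes, CPM was divided by the summed exon length of each gene in GENCODE M21. On this scale Taok3 made up 48.1% and 55.1% of TAO kinase RNA in the vehicle libraries and 87.8% and 81.8% in the DCA libraries. Taok2 made up 29.1% and 21.9% with vehicle and 5.17% and 7.76% with DCA, and Taok1 22.8% and 23.0% with vehicle and 7.03% and 10.5% with DCA. Shares within a family depend on each other, so a higher Taok3 level by itself lowers the shares of Taok1 and Taok2. The ratio of mean CPM, DCA to vehicle, was 0.61 for Taok1 and 0.40 for Taok2. The summed level of the 3 genes was 10.9 and 11.5 CPM per kilobase with vehicle and 20.2 and 16.2 with DCA, so the family as a whole was higher in both DCA libraries, through Taok3. With the longest RefSeq transcript as the length, the share of Taok3 was 60.9% and 68.3% with vehicle and 92.9% and 89.1% with DCA.

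**Figure D2:**
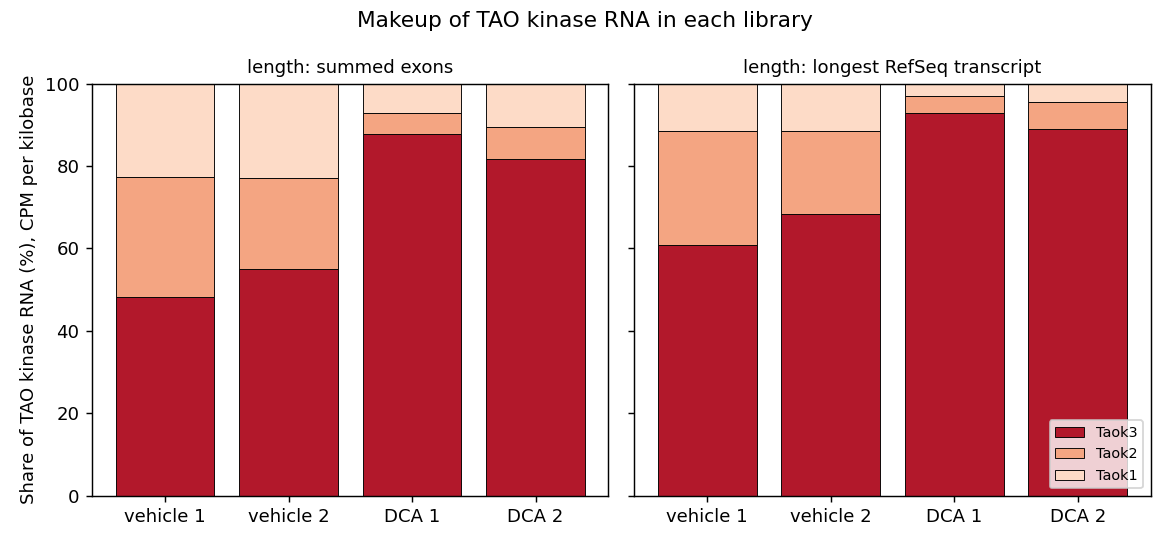
Share of each TAO paralog in the summed CPM per kilobase of the family, in percent, for each library, with the summed exons of a gene (left) or its longest RefSeq transcript (right) as the length. Taok3 takes 48.1% and 55.1% with vehicle and 87.8% and 81.8% with DCA on the left, and its share is larger in both DCA libraries with either length.

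Among the MAP4K genes, Map4k1 (Entrez gene 26411, chromosome 7, 28982050 to 29003279, plus strand) measured 107 and 110 CPM in vehicle and 140 and 120 CPM in DCA libraries. The DCA libraries lay above the vehicle libraries, by a small margin. The log2 fold change was 0.26 (SE 0.11), from 109 ± 2.19 to 130 ± 14.2 CPM (SD, n = 2 each), and 0.14 when DCA replicate 1 was left out.

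Map4k4 (Entrez gene 26921, chromosome 1, 39900913 to 40026310, plus strand), a kinase linked to JNK and to cell migration, measured 22.9 and 11.1 CPM in vehicle and 29.8 and 22.5 CPM in DCA libraries. DCA replicate 2 lay just under vehicle replicate 1, so the treatments overlapped. Its log2 fold change was 0.62 (SE 0.53), and it was 0.19 without vehicle replicate 2 and 1.21 without vehicle replicate 1.

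Map4k3 (Entrez gene 225028, chromosome 17, 80580512 to 80728485, minus strand), also called GLK and known as an activator of lymphocyte signaling and of mTORC1, measured 37.6 and 4.24 CPM in vehicle and 19.3 and 20.3 CPM in DCA libraries. The vehicle libraries differed 8.86-fold and enclosed both DCA values. The low value rests on 111 counts, with an exact Poisson 95% interval of 3.49 to 5.11 CPM, so counting error alone does not span the gap to 37.6 CPM. The log2 fold change, -0.080 (SE 1.44) over all libraries, was 2.196 without vehicle replicate 1 and -0.92 without vehicle replicate 2, so its direction was not determined.

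Map4k5 (Entrez gene 399510, chromosome 12, 69803750 to 69893200, minus strand) measured 20.3 and 14.6 CPM in vehicle and 21.3 and 9.70 CPM in DCA libraries. The DCA values enclosed the vehicle values. Its log2 fold change was -0.17 (SE 0.58), with -0.85 when DCA replicate 1 was left out and 0.29 when DCA replicate 2 was.

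The MST genes were both lower on average with DCA, but their libraries varied more than those of the TAO genes. Stk3 (Entrez gene 56274, chromosome 15, 34875496 to 35178921, minus strand) measured 28.9 and 34.4 CPM in vehicle and 9.90 and 22.8 CPM in DCA libraries. Both DCA libraries were below both vehicle libraries and differed 2.30-fold from each other. The log2 fold change was -0.95 (SE 0.58), with -1.67 when DCA replicate 2 was left out and -0.48 when DCA replicate 1 was.

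Stk4 (Entrez gene 58231, chromosome 2, 164070322 to 164155524, plus strand) measured 162 and 67.0 CPM in vehicle and 97.1 and 87.4 CPM in DCA libraries. The vehicle libraries stood on either side of the DCA libraries. Its log2 fold change of -0.31 (SE 0.64) was -0.81 without vehicle replicate 2 and 0.44 without vehicle replicate 1. Stk4 was the larger part of MST kinase RNA in every library, with 85.4% and 67.0% with vehicle and 91.1% and 80.0% with DCA per kilobase of summed exons.

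**Figure D3:**
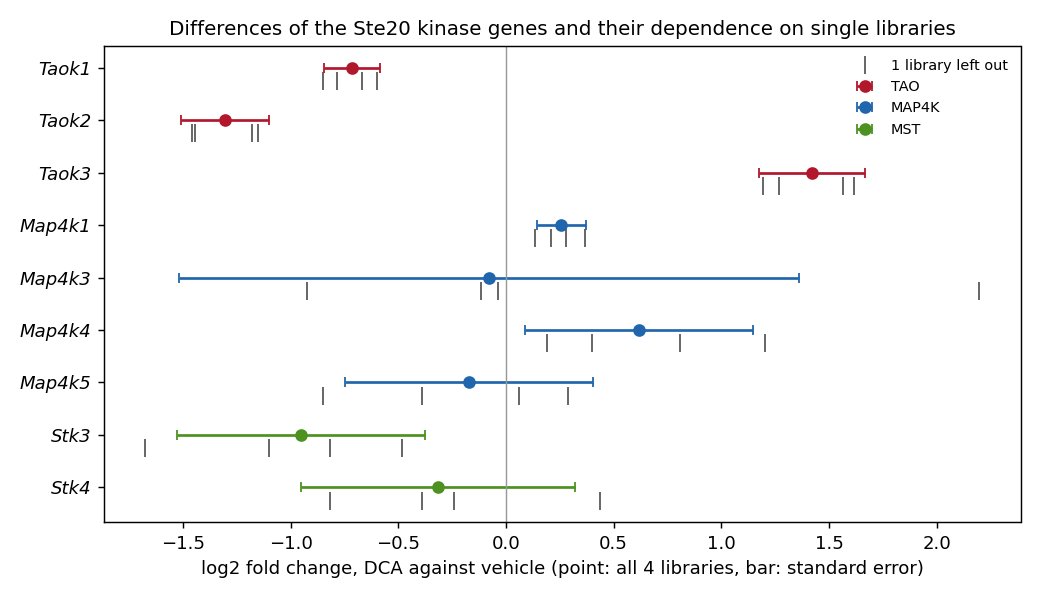
Log2 fold changes of DCA against vehicle for the 9 kinase genes, with all 4 libraries (points, colored by family, with SEs) and with each library left out in turn (ticks). The ticks of Taok3 run from 1.19 to 1.62, while Map4k3, Map4k5, and Stk4 have ticks on both sides of 0. For Taok1, Taok2, Taok3, Map4k1, and Stk3 the treatments do not overlap, so their ticks stay on 1 side by construction.

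Over the 9 genes, 3 had a positive and 6 a negative log2 fold change, with a median of -0.17, against 0.0082 over all genes tested. Of all genes tested, 50.7% had a positive log2 fold change. Without vehicle replicate 1 the median was 0.21, and without vehicle replicate 2 it was -0.67. The DCA libraries were above the vehicle libraries for 2 of the 9 genes, as for 18.7% of all genes tested, and below for 3 of the 9, as for 14.7%. With edgeR's quasi-likelihood test across all genes, an adjusted p under 0.05 was reached by 0 of the 9 and by 0% of all genes. At an unadjusted p under 0.05 there was 1 higher member, Taok3, beside 2.56% of all genes, and 1 lower member, Taok2, beside 1.74%. The Taok2 call was lost, with 0 lower members, under the replicate block, without a filter, and when vehicle replicate 1, DCA replicate 1, or DCA replicate 2 was left out. Taok3 had an adjusted p under 0.05 without a filter on low counts, where 0.136% of the genes tested did so with higher values, and in DESeq2, where 0.751% did. Since Taok3 was picked for this contrast, these counts describe the choice and carry no support.

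Read sharing between these paralogs was examined from their transcript sequences. In the 36 pairs of members the longest exact run shared by any transcripts was 26 bases (Taok2 and Stk3), and 0 pairs shared a stretch of 50 bases. Exons of Taok1 overlap 94 bases of Abhd15 on the opposite strand, which is 0.757% of its exon length, those of Map4k3 overlap 108 bases of the pseudogene Gm9959, and those of Map4k5 overlap up to 548 bases (6.36%) of Atl1. Whether the counting used strand is not given in the sources used here, so reads in these overlaps cannot be assigned.

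Ordered by level in vehicle libraries per kilobase of summed exons, Map4k1 came first at 35.4 ± 0.713 CPM per kilobase (SD, n = 2), followed by Stk4 at 19.6 ± 11.5. Taok3 at 5.78 ± 0.762 and Stk3 at 5.18 ± 0.645 came next and overlapped each other. Taok2 at 2.84 ± 0.464, Taok1 at 2.56 ± 0.111, Map4k3 at 2.11 ± 2.38, Map4k5 at 2.02 ± 0.471, and Map4k4 at 1.78 ± 0.869 formed the lower end, where each neighbor overlapped the next. In DCA libraries Taok3 was at 15.5 ± 3.13 CPM per kilobase and overlapped Stk4 at 15.7 ± 1.17, whereas Taok2 had the lowest mean, 1.15 ± 0.153, and overlapped Map4k5. Map4k1 remained first at 42.3 ± 4.63. With the longest RefSeq transcript as the length, 3 genes had another rank, and Taok1 moved from rank 6 to rank 9 in vehicle libraries. That length also changed the order in DCA libraries, where Taok3, at 44.2 and 33.2 CPM per kilobase, lay above Stk4, at 18.6 and 16.7, and overlapped Map4k1, at 51.5 and 44.1. Taok1, at 1.42 and 1.70, then lay below Taok2, at 1.95 and 2.35.

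Related genes were examined as 5 lists, with the same test across all genes. Under edgeR's quasi-likelihood test none of the lists held a gene whose adjusted p was below 0.05, while 480 of the 11179 genes had an unadjusted p under 0.05, and DESeq2 gave 127 genes with an adjusted p under 0.05, none of them in the lists. Over all genes tested, 5673 had a positive and 5506 a negative log2 fold change (median 0.0082). Of 21 other Ste20 kinase genes, 15 were tested, 11 with a positive and 4 with a negative log2 fold change (median 0.30), and 0 had an unadjusted p under 0.05. Leaving out DCA replicate 1 turned this direction, to 6 positive and 9 negative (median -0.060), and the median was 0.12 without vehicle replicate 1, 0.14 without vehicle replicate 2, and 0.50 without DCA replicate 2. Pak2, a Rac and Cdc42 effector, had the highest level per kilobase in vehicle, at 22.8 ± 6.27 (SD, n = 2), and measured 185 and 124 CPM in vehicle and 126 and 101 CPM in DCA libraries. Map4k2, a MAP4K outside the 9 genes, had the smallest p of the list, with 70.9 and 20.1 CPM in vehicle and 15.1 and 27.3 CPM in DCA libraries. Its log2 fold change was -1.10 (SE 0.97), and 0.052 without vehicle replicate 1. Mink1, a relative of Map4k4, had the highest log2 fold change, 2.75, from 33 and 4 vehicle counts and 101 and 966 DCA counts. This value was 1.99 without vehicle replicate 2 and 4.51 without vehicle replicate 1. The SE of 0.39 understates the spread, since Mink1 was at 0.903 and 0.153 CPM in vehicle, where the 1 added to CPM shrinks differences. Pak4 had the lowest log2 fold change, -1.68 (SE 0.77), or -0.55 without vehicle replicate 1. It measured 11.5 and 3.32 CPM in vehicle and 2.45 and 2.18 CPM in DCA libraries.

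Of 31 genes of the p38 and JNK cascade, 26 were tested, 8 with a positive and 18 with a negative log2 fold change (median -0.15). The list is not limited to genes that act below TAO kinases, since it also holds Map3k genes, among them Map3k4. Without vehicle replicate 1 the direction turned, to 16 positive and 10 negative (median 0.15), and without vehicle replicate 2 the median was -0.38. Among these, 0 had an unadjusted p under 0.05 in the edgeR test. Map2k3, which encodes the p38 activator MEK3, a known substrate of TAO kinases, had the highest level, 94.8 ± 6.25 CPM per kilobase with vehicle (SD, n = 2). It measured 329 and 299 CPM in vehicle and 414 and 337 CPM in DCA libraries, a log2 fold change of 0.26 (SE 0.16), or 0.098 when DCA replicate 1 was left out. Map3k4 had the lowest log2 fold change, -1.14 (SE 0.55), or -0.70 without vehicle replicate 1, with 19.4 and 10.97 CPM in vehicle and 4.77 and 8.97 CPM in DCA libraries. Mapk12, the p38γ gene, had the smallest p of the list but was detected in a single library, with 170 counts in DCA replicate 1 and 0 in the other 3, so no fold is given.

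In the Hippo pathway, 13 of 26 genes were tested, 2 with a positive and 11 with a negative log2 fold change (median -0.36). This split depended on single libraries, with 6 positive and 6 negative without vehicle replicate 1 (median -0.053), 6 and 7 without vehicle replicate 2, and 5 and 8 either without DCA replicate 2 (median -0.089) or with the replicate block (median -0.23). When DCA replicate 1 was left out the median was -0.96. Stk38, which encodes the NDR1 kinase that MST kinases activate, was the only one with an unadjusted p under 0.05. Of all genes tested, 1.74% were lower and 2.56% higher with DCA at that threshold, so a single call does not mark the list out. Stk38 measured 145 and 87.2 CPM in vehicle and 59.8 and 55.8 CPM in DCA libraries. Both DCA libraries were below both vehicle libraries. The log2 fold change was -1.01 (SE 0.37), and edgeR's quasi-likelihood test gave an unadjusted p of 0.0227. Its adjusted p in edgeR was 0.998, and 0.259 to 1 over the alternatives with all libraries. Leaving out vehicle replicate 1 gave -0.62 and leaving out vehicle replicate 2 gave -1.33. Its paralog Stk38l had the highest log2 fold change of the list, 1.46 (SE 1.08), with 0.62 without vehicle replicate 1 and 3.51 without vehicle replicate 2, at 1.20 and 8.75 CPM in vehicle and 12.8 and 14.6 CPM in DCA libraries, and Wwc2 the lowest, -2.02 (SE 1.70), with 2 counts in vehicle replicate 2 and -3.72 when DCA replicate 2 was left out or -1.25 when DCA replicate 1 was. The Hippo coactivator Yap1 and the target gene Ccn1, chosen after their values were seen, were at most at 0.0166 CPM and at 0 counts, while the coactivator Wwtr1 was at 3.75 and 15.5 CPM in vehicle and 11.9 and 4.99 CPM in DCA libraries.

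STRIPAK is a phosphatase complex that holds MST and MAP4K kinases in check. Of its 17 genes, 14 were tested, 6 with a positive and 8 with a negative log2 fold change (median -0.016), and 0 had an unadjusted p under 0.05. The median was positive, 0.064 to 0.11, when any of the 4 libraries was left out, and 0.092 with the replicate block. Ppp2r1a, the scaffold subunit of the phosphatase PP2A, was the most abundant at 96.8 ± 7.91 CPM per kilobase with vehicle (SD, n = 2), with 349 and 311 CPM in vehicle and 378 and 238 CPM in DCA libraries. Sike1, which links STRIPAK to its partner SLMAP, had the smallest p and the highest log2 fold change, 0.63 (SE 0.41), with 0.25 without vehicle replicate 1 and 1.10 without vehicle replicate 2, at 42.7 and 75.7 CPM in vehicle and 90.9 and 92.0 CPM in DCA libraries. The striatin gene Strn had the lowest, -1.28 (SE 2.21), but varied from 30.3 to 0.459 CPM between the vehicle libraries, and its value was 3.76 without vehicle replicate 1 and -2.26 without vehicle replicate 2, so its direction was not determined.

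Of 22 genes for partners of MST1 in adhesion and trafficking, 19 were tested, 6 with a positive and 13 with a negative log2 fold change (median -0.063). The direction turned without vehicle replicate 1, to 13 positive and 7 negative (median 0.14), and without DCA replicate 2, to 12 positive and 7 negative (median 0.11), while the median was -0.16 without vehicle replicate 2. Tln1, which encodes talin, the link between integrins and actin, was the only one with an unadjusted p under 0.05. At that threshold 1.74% of all genes tested were lower and 2.56% higher with DCA, so a single call does not mark the list out. Tln1 measured 163 and 147 CPM in vehicle and 89.6 and 87.3 CPM in DCA libraries. Both DCA libraries were lower than both vehicle libraries, and replicates lay close together. The log2 fold change was -0.81 (SE 0.075), and edgeR's quasi-likelihood test gave an unadjusted p of 0.0149. Its adjusted p in edgeR was 0.998, and 0.154 to 1 over the alternatives with all libraries. Fermt3, which encodes kindlin-3, another integrin activator, had the highest level of the list in vehicle, 94.0 ± 14.5 CPM per kilobase (SD, n = 2). It measured 603 and 484 CPM in vehicle and 847 and 692 CPM in DCA libraries, a log2 fold change of 0.50 (SE 0.22). Rapgef1 had the highest log2 fold change, 0.88 (SE 0.90), which was 0.20 without vehicle replicate 2 and 2.16 without vehicle replicate 1. Rassf6 had the lowest, -1.51 (SE 2.19), but ranged from 19.4 to 0.0764 CPM between vehicle replicates, and its value was 5.44 without vehicle replicate 1 and -2.496 without vehicle replicate 2, so its direction was not determined.

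**Figure D4:**
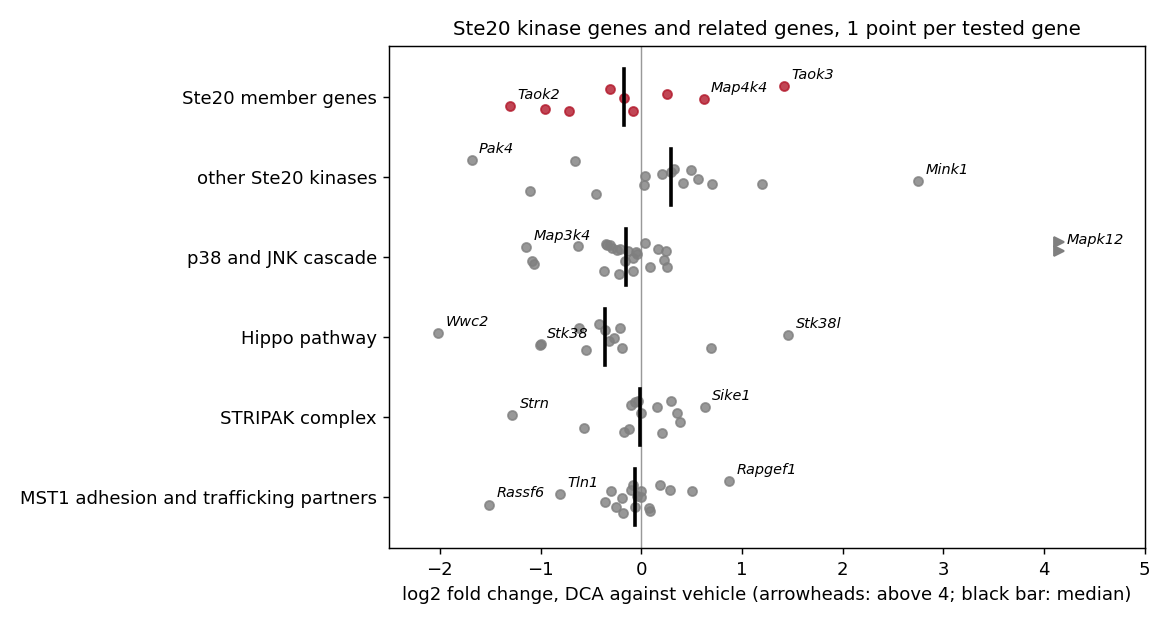
Log2 fold changes of DCA against vehicle for the 9 kinase genes and the tested genes of 5 related lists, with 1 point per gene and a black bar at each median. Arrowheads stand for Mapk12 and Map3k20. The medians lie between -0.36 for the Hippo pathway and 0.30 for other Ste20 kinases, each but that of the Hippo pathway changes sign when certain single libraries are left out, and 0 genes of the 5 lists passed the adjusted threshold of edgeR's test.

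**Figure D5:**
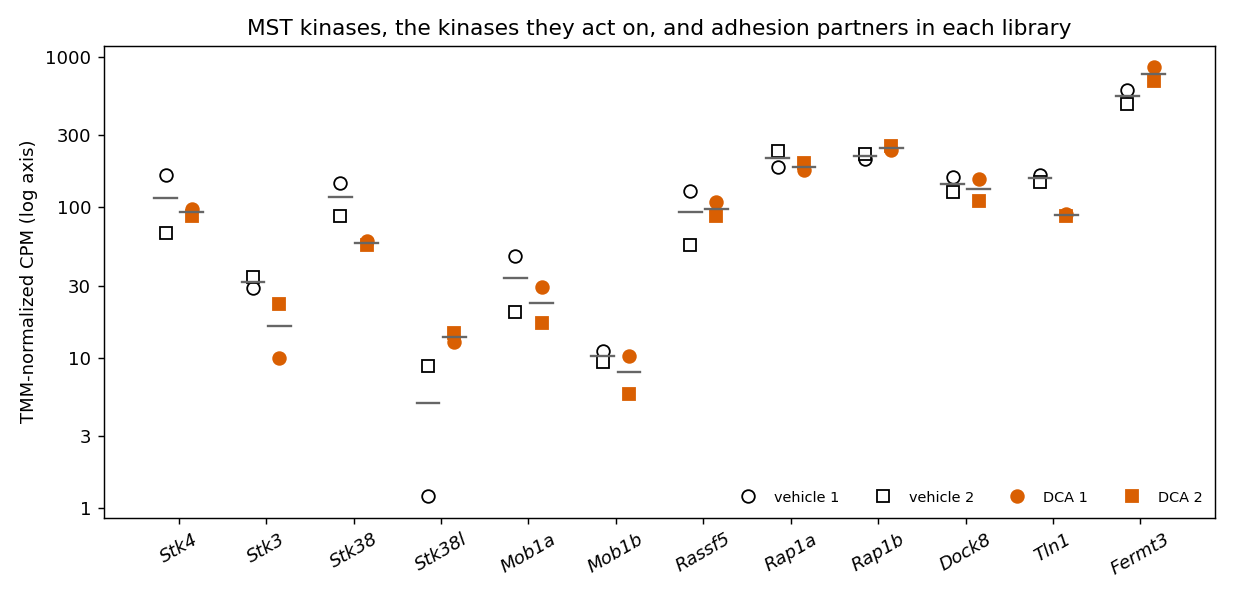
Normalized expression of the MST genes, of NDR kinase and MOB1 genes, and of adhesion partners in each library, in TMM-normalized CPM on a log axis, with lines at the means. The genes were chosen for display by role after their values were seen. The treatments do not overlap for Stk3, Stk38, and Tln1, which were lower with DCA, and for Stk38l, Rap1b, and Fermt3, which were higher. Of all genes tested, 14.7% were lower and 18.7% higher without overlap. Because the panel was picked with its values seen, how many of its genes do not overlap is not a result.

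The genes outside the set whose centred log2(CPM + 1) over the 4 libraries lay nearest to that of Taok3 were Gm16712, Cald1, Tesk2, Hmox1, and Jpx, at root mean square distances of 0.043 to 0.10. Among these, Hmox1, which encodes the heme-degrading enzyme heme oxygenase 1, was at a level like that of Taok3, with 68.3 and 88.2 CPM in vehicle and 216 and 175 CPM in DCA libraries. Cald1 was at 1.18 and 1.45 CPM in vehicle and 6.62 and 4.40 CPM in DCA libraries. The other 3 were at most at 3.37 CPM in any library. Log2 fold changes were 4.46 for Gm16712, 2.07 for Cald1, 5.12 for Tesk2, 1.32 for Hmox1, and 2.81 for Jpx, against 1.42 for Taok3. In vehicle libraries Gm16712 was at 0 and 0.191 CPM and Tesk2 at 0 and 0.115 CPM, so the size of their fold changes is not determined. At low levels the 1 added to CPM shrinks differences, so a small distance need not mean a like fold change. With 4 libraries and 11179 genes, near profiles are found for many genes, and no shared regulation was tested.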

How the data were processed

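Full-length cDNA libraries of control (vehicle) and DCA-treated ILC2s were made with a SMART-Seq HT kit and sequenced as paired reads. Per the methods and processing notes, reads were trimmed by the authors (Cutadapt 1.9) and mapped to mm10 (HISAT2 2.2.1). The deposited values are whole-number read counts per gene, although the table is named for FPKM, and the counting tool, annotation, and strand setting are not given in the sources used here. Libraries were matched to treatments by title. The 1275 rows with an Entrez ID but no symbol, 0.137% to 0.173% of counts, were kept.

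Counts were TMM-normalized, and the 11179 genes averaging 1 CPM or more were tested with edgeR 4.0.16 in R 4.3.3 (two-sided quasi-likelihood test, p-values adjusted over all genes by Benjamini-Hochberg), DCA against vehicle, without the replicate number as a term. The test was run on simulated counts with 200 changed genes, at the estimated spread and at a small spread. Recovery of the changed genes was required only at the small spread, so its power at the spread of these data was not established. Standard errors (SE) were computed on log2(CPM + 1), with 2 libraries per treatment. Lengths and positions come from GENCODE M21 (GRCm38), and promoters from RefSeq.

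The members and lists were chosen with earlier results of these data known. List genes named are those with an unadjusted p under 0.05 (or the smallest p), the highest level per kilobase in vehicle, and the highest and lowest log2 fold change. Alternatives were median-of-ratios scaling, no filter, DESeq2 1.42.0 on the same genes, the replicate block, DCA replicate 2 thinned to 31503637 counts, another gene length, and leaving out each library. Intervals of counts cover counting error only.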

Additional observations from a re-analysis of the deposited data

How the results depend on the processing

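With 2 libraries per treatment, small differences could not be resolved. DCA replicate 2 had 9.19 times the depth of the shallowest library. With it thinned, the edgeR test gave 474 genes with an unadjusted p under 0.05 and 0 with an adjusted p under 0.05. The log2 fold change of Taok3 was then 1.42. Taok1, Taok2, Taok3, Map4k1, Map4k4, and Stk3 kept the sign of their log2 fold change under all 9 alternatives. Map4k3, Map4k5, and Stk4 kept it under 7, 7, and 8 of them, and Map4k3 was at 0.64 with the replicate block. For Taok1, Taok2, Taok3, Map4k1, and Stk3, whose treatments did not overlap, leaving out 1 library leaves the sign as it is. Genes past an adjusted p of 0.05 numbered 36 without a filter and 127 with DESeq2, and the count at an unadjusted p under 0.05 was 847 and 788, in place of 480. At an unadjusted p under 0.05 there was 1 other Ste20 kinase without a filter, the p38 and JNK cascade had 2 genes without a filter and 1 with DESeq2, and MST1 partners had 2 with DESeq2 and 2 with the replicate block. The cause was not tested. With the longest RefSeq transcript, 3 members had another rank by level.

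In fits that left out 1 library, the remaining library of that treatment was assumed to vary like the others. Genes with an adjusted p under 0.05 then numbered 0 to 20 (20 without vehicle replicate 1), and those with an unadjusted p under 0.05 numbered 106 when DCA replicate 1 was left out, 260 for DCA replicate 2, 1229 for vehicle replicate 2, and 1494 for vehicle replicate 1. The counts at an unadjusted p under 0.05 ranged from 0 to 3 for other Ste20 kinases, 0 to 2 for the p38 and JNK cascade, 0 to 3 for the Hippo pathway, 0 to 3 for STRIPAK, and 0 to 2 for MST1 partners, each at its highest without vehicle replicate 2, with Stk38 and Tln1 at 0.110 and 0.0916 at most in these edgeR fits. The median log2 fold change of the 9 members ranged from -0.67 to 0.21.

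The replicate numbers are not stated to pair libraries. The deviations of libraries with the same number correlated at 0.020 across genes, which are not independent replicates. With 2 libraries per treatment, this value cannot decide whether libraries were paired. With the replicate block 449 genes had an unadjusted p under 0.05 and 0 an adjusted p under 0.05 in the edgeR fit.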
